A study of Mus musculus with 2 samples.

Results

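The genes described here make, read and answer to oxysterols, the hydroxylated forms of cholesterol, or move cholesterol out of cells. They are Ch25h, Cyp7b1, Hsd3b7, Cyp27a1, Gpr183, Abca1, Abcg1 and Insig1, chosen by name, and all 8 were found among the 24646 gene symbols of the deposited comparison. The set was picked with earlier results of these data known, so the differences below describe the genes and test nothing. A symbol on more than 1 row of the array table is represented by its brightest row, by mean signal. For the 8 genes and the list genes named below, the other row is given too.

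Affymetrix arrays measured gene expression in 2 samples of mouse mammary stromal cells, from littermates 10 weeks old. In the Gli2-ablated sample (genotype Gli2∆S) the hedgehog transcription factor Gli2 is labelled as removed from the stroma, whereas the control sample (genotype Gli2WT) kept it. The cells of both samples were sorted as green cells in which Fsp1-Cre had switched the Rosa26 mTmG reporter, so both carry the Cre and the reporter. Fsp1 (S100a4), whose promoter drives this Cre, is also known from leukocytes. Each group held 1 sample, so that no difference here has a replicate check, no p-value can be given, and precision is limited by the number of arrays. The comparison asks which stromal genes depend on Gli2.

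Cholesterol is hydroxylated on its side chain by Ch25h in the endoplasmic reticulum and by Cyp27a1 in mitochondria. Cyp7b1 adds a further hydroxyl group, which turns the Ch25h product into the ligand of Gpr183 (EBI2), a receptor that guides B cells, T cells and dendritic cells, and Hsd3b7 converts that ligand further and so removes it. Oxysterols also activate the liver X receptors, which switch on the cholesterol exporters Abca1 and Abcg1. They bind the Insig proteins as well, which hold SREBP, the activator of cholesterol synthesis, in the endoplasmic reticulum. In lymphoid tissue fibroblastic stromal cells are a known source of the Gpr183 ligand, and some oxysterols bind Smoothened, the hedgehog signal transducer upstream of the Gli factors.

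Values are log2 signals, and each difference is the log2 signal in the Gli2-ablated sample minus that in the control sample. The signal filter kept a gene if its higher signal reached 6.445, which is the median of such higher signals across named genes. The deposited tables hold no detection calls, so a gene below the filter is not shown to exceed background. Of the 8 genes, 7 passed, and Cyp7b1 did not. Among the 12323 genes that passed, the median difference was 0.02 and the scaled median absolute deviation 0.21, with the middle 95% between -0.83 and 0.48. A 2-fold difference, 1 on the log2 scale, was the size rule.

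The signal of Gli2 was 5.32 in the Gli2-ablated sample and 5.94 in the control sample in the comparison table (difference -0.62), below the filter. In the series matrix, the other deposited table of the same arrays, it had 5.72 in the Gli2-ablated sample and 5.94 in the control sample, a difference of -0.22. Probes lying outside the deleted stretch cannot report the deletion, and the sources used here do not say where the Gli2 probes lie. The signals of all 8 genes were the same in both tables after rounding. The Cre driver gene S100a4 had 7.98 in the Gli2-ablated sample and 8.16 in the control sample. Markers of lymphocytes were well above the filter in both samples of these cells labelled as stromal. The B cell receptor chain Cd79a had 11.53 in the Gli2-ablated sample and 11.51 in the control sample, and the T cell receptor complex chain Cd3e had 11.43 in the Gli2-ablated sample and 11.09 in the control sample (both named after their values were seen).

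Of the 8 genes, 4 were lower in the Gli2-ablated sample and 4 were higher, with a median of -0.10. The 4 lower ones were the 4 enzymes, Ch25h, Hsd3b7, Cyp7b1 and Cyp27a1, and the 4 higher ones were the receptor Gpr183, the exporters Abca1 and Abcg1, and Insig1, although Abca1 (0.04) turned to -0.01 under loess scaling. Over all 24646 named genes the median was 0, with 47.0% lower and 50.0% higher. At least 2-fold lower was 1 of the 8, Ch25h, against a background of 0.933% of all named genes and 1.73% of those passing the filter. At least 2-fold higher were 0 of the 8, against 0.304% of all named genes and 0.373% of those passing. Without Ch25h the differences ran from -0.44 to 0.44, with a median of 0.04. The split between enzymes and the other genes was seen in these 2 samples only and was not tested.

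**Figure D1:**
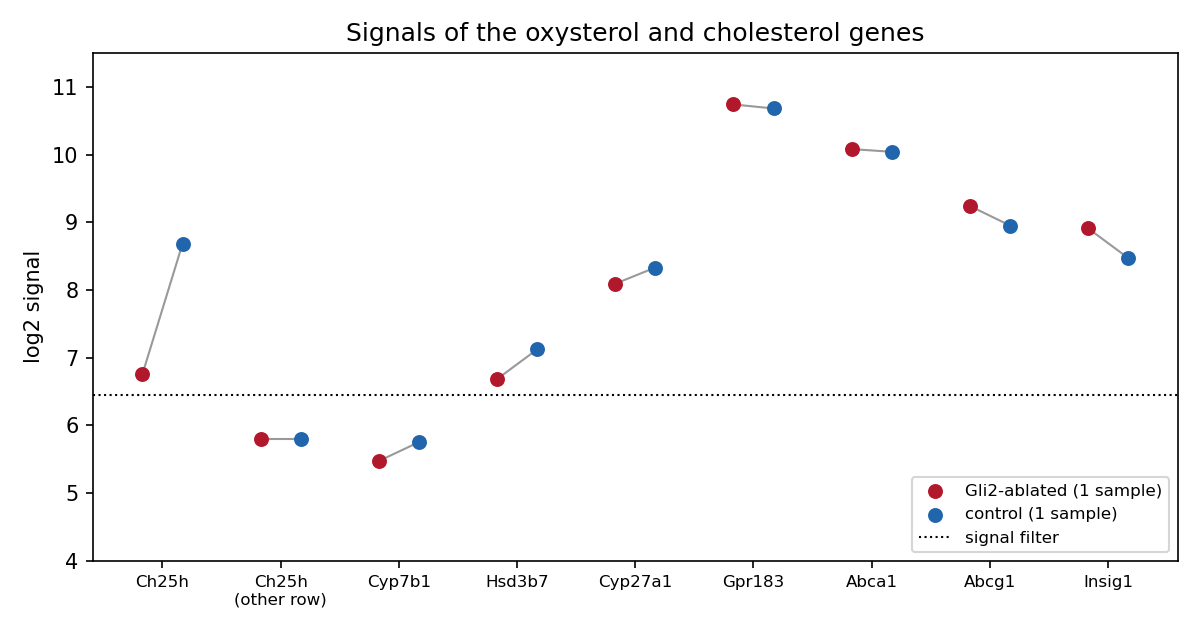
Log2 signal (vertical axis) of each of the 8 genes in the Gli2-ablated sample (red, left of each pair) and the control sample (blue, right of each pair), with the other row of Ch25h shown beside its main row and the signal filter dotted. Ch25h stands at 6.75 in the Gli2-ablated sample and 8.68 in the control sample, while its other row is level at 5.79. The heights of different genes are not comparable, since each has its own probes.

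Ch25h, which makes the side-chain oxysterol from which the Gpr183 ligand is built, had a log2 signal of 6.75 in the Gli2-ablated sample and 8.68 in the control sample. The difference of -1.93 is a 3.81-fold lower signal, and in the authors' deposited table the signed fold of control over ablated stood at 3.81. The signal in the Gli2-ablated sample lay only just above the filter. Within its bin of mean signal, 1 of 20 that together hold all named genes, 2 of 1225 genes were as low, Ch25h included, and the middle 95% ran from -0.98 to 0.45.

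A second row of the table also carries the symbol Ch25h and the same public transcript identifiers. It had 5.79 in the Gli2-ablated sample and 5.79 in the control sample, both below the filter, so that this row showed no difference. In the series matrix both signals were 5.78825, equal to every digit given, as was the case for 764 of 41345 rows (1.85%). Averaging both rows of Ch25h gave a difference of -0.97, which is under 2-fold, and the count of genes at least 2-fold lower then was 0 of 8. The sources used here do not give which part of the transcript each row covers.

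The sequence before Ch25h is shown because this gene carries the one large difference in the set. It is the RefSeq promoter window of GRCm38.p6, chr19:34475099-34475398, minus strand, written along the gene from 250 bases before its start to 50 bases after it. No capitals appear in it, because none of the 4 motifs searched for was in this window, which says nothing of the factors that read them.
Ch25h: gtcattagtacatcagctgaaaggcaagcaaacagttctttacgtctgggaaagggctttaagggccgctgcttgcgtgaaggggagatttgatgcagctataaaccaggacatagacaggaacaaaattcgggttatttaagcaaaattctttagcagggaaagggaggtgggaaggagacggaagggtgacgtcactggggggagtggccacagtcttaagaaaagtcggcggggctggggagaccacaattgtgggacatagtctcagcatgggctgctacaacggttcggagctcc
The motifs, searched on both strands, were the GLI site TGGGTGGTC, the sterol regulatory element TCACNCCAC, the liver X receptor element (AGGTCA, 4 letters, AGGTCA) and a relaxed form of it (GGTNA, 5 letters, GGTCA). The strict element is contained in the relaxed one. Of 32851 RefSeq promoter windows of the same length, 0.253% held the GLI site, 1.24% the sterol element, 0.0152% the strict and 0.207% the relaxed liver X receptor element. A promoter window was found for 6 of the 8 genes, the others being Cyp7b1 and Abcg1, and 1 of the 6 held a motif.

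The 3 genes whose pair of signals lay nearest to that of Ch25h were Pdpn, Pdgfrb and Loxl1. Likeness was the straight-line distance between the log2 signals of both samples, over genes that passed the filter and have a standard name. With 2 values per gene, from probes whose levels are not comparable between genes, it describes these arrays only. Podoplanin (Pdpn), a surface glycoprotein of fibroblastic and lymphatic endothelial cells, was nearest, at 6.85 in the Gli2-ablated sample and 8.58 in the control sample (distance 0.14). The platelet-derived growth factor receptor Pdgfrb followed at 6.91 in the Gli2-ablated sample and 8.72 in the control sample (distance 0.16). The collagen cross-linking oxidase Loxl1 came next, at 6.92 in the Gli2-ablated sample and 8.55 in the control sample (distance 0.21). Within 0.2 of Ch25h lay 2 such genes, against 88 for Gpr183 and 96 for Insig1.

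Fibroblast markers were lower in the Gli2-ablated sample, together with Ch25h. All 14 listed markers passed the filter and were lower, and 9 reached 2-fold. Over all genes that passed, 44.8% were lower and 1.73% at least 2-fold lower. The median difference of the 14 markers was -1.19. The log2 of their summed linear signal was 13.06 in the Gli2-ablated sample and 13.91 in the control sample. The 9 were the receptors Pdgfra (-1.98) and Pdgfrb (-1.81), the collagen chains Col1a1 (-1.87), Col1a2 (-1.69) and Col3a1 (-1.29), the homeobox gene Prrx1 (-1.54), lumican Lum (-1.39), dermatopontin Dpt (-1.08) and Pi16 (-1.08). The dimmer row of Col1a2 had a difference of -1.19. Prrx1 passed the filter through its control signal, since its signal of 6.28 in the Gli2-ablated sample lay below it. At the other end Fap (-0.07), Thy1 (-0.13) and S100a4 (-0.18) lay within the spread of single genes (0.21), and decorin, Dcn, had -0.50, all 4 named after their values were seen. Fap lay only just above the filter, at 6.55 in the Gli2-ablated sample and 6.62 in the control sample. Which cells gave the Thy1 and S100a4 signals is not shown by these values. In these bulk samples fewer cells of a type and less RNA per cell cannot be told apart, and the part of the fibroblast markers in the Ch25h difference was not tested.

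Macrophages are another known source of Ch25h, where interferon induces it. Over all genes that passed the filter, 44.8% were lower, 1.73% at least 2-fold lower and 0.373% at least 2-fold higher. Of 12 macrophage markers, all passing, 9 were lower and 0 were 2-fold apart, with a median of -0.25. They ran from Aif1 (-0.60, with the Gli2-ablated signal of 6.20 below the filter) to the mannose receptor Mrc1 (0.20), and the log2 summed signal was 12.04 in the Gli2-ablated sample and 12.26 in the control sample. Of 10 interferon response genes passing the filter, out of 12 listed, 6 were lower and 4 higher, with a median of -0.23. Ifit1, an antiviral RNA-binding protein, was the one gene of that list 2-fold apart (9.18 in the Gli2-ablated sample and 10.18 in the control sample). The part of these genes in the Ch25h difference was not tested.

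**Figure D2:**
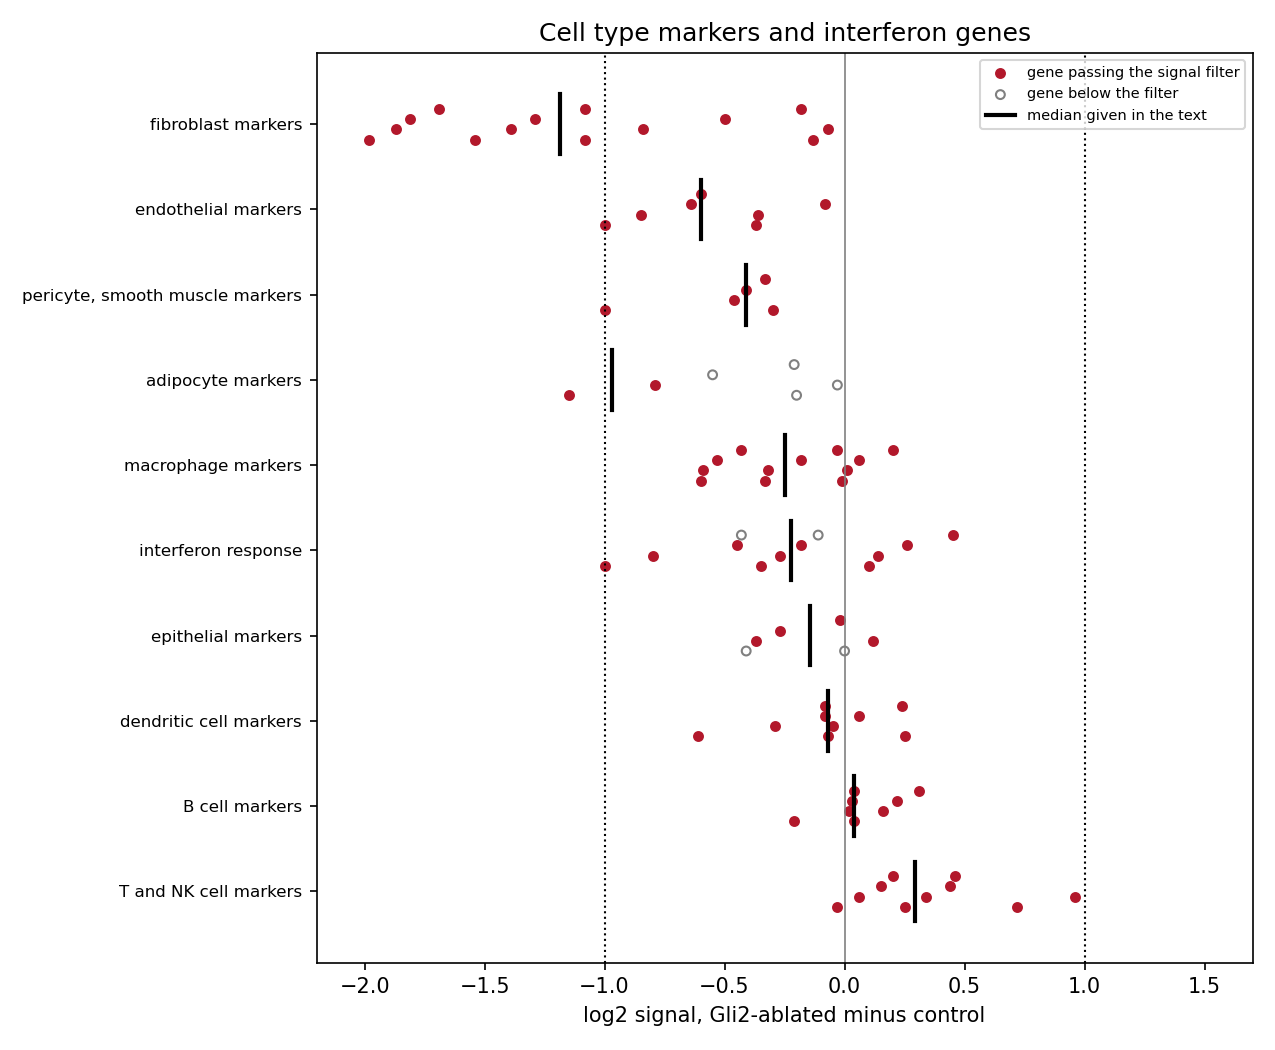
Difference in log2 signal, Gli2-ablated minus control (horizontal axis), of each gene of the cell type marker lists and the interferon response list, with genes below the signal filter as open circles, list medians as bars and 2-fold as dotted lines. The fibroblast median is at -1.19 and the T and NK cell median at 0.30.

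The genes on either side of Ch25h in the RefSeq order of protein-coding genes (assembly GRCm38.p6) differed far less. The death receptor gene Fas had 8.05 in the Gli2-ablated sample and 8.32 in the control sample (-0.27). Lipa, the lysosomal acid lipase that frees cholesterol from its esters, had 10.06 in the Gli2-ablated sample and 10.13 in the control sample (-0.07). Fas was looked up after the values were seen, and Lipa was on the transport list.

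The other 3 enzymes had small differences. Cyp7b1, the hydroxylase that completes the Gpr183 ligand, had 5.47 in the Gli2-ablated sample and 5.75 in the control sample, a difference of -0.28. Both signals lay below the filter, and 12.9% of the 1219 genes of like signal were as low. Its nearest genes passing the filter were 0.80 or more away, since the filter leaves out genes as dim as Cyp7b1, and are not described.

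Hsd3b7, the dehydrogenase that removes the Gpr183 ligand and also serves bile acid synthesis, had 6.68 in the Gli2-ablated sample and 7.12 in the control sample. Its difference of -0.44, a 1.36-fold lower signal, was reached by 8.29% of the 1242 genes of like signal. Cyp27a1, the mitochondrial side-chain hydroxylase, had 8.09 in the Gli2-ablated sample and 8.33 in the control sample (-0.24), as low as 12.4% of 1230 such genes. All 3 lay inside the middle 95% of genes of like signal. The 4 enzymes together had a median of -0.36, which is negative because they are also the 4 lower genes of the set. Cyp7b1, below the filter, is among them.

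The remaining oxysterol enzymes on the list had small differences. The list has 14 genes and 8 passed, of which 5 were lower, 3 higher and 0 at least 2-fold apart (median -0.05). Of all genes that passed, 44.8% were lower and 53.0% higher, with 1.73% at least 2-fold lower and 0.373% at least 2-fold higher. A count of 0 among 8 genes is near these shares. The 8 genes ranged widely in function. They ran from Sult2b1, a sulfotransferase that modifies cholesterol and oxysterols (6.62 in the Gli2-ablated sample and 7.03 in the control sample, -0.41), to Akr1d1, a steroid reductase of bile acid synthesis (0.07, or -0.11 on its dimmer row). The brain cholesterol hydroxylase Cyp46a1 and Cyp7a1, the rate-limiting hydroxylase of bile acid synthesis in liver, stayed below the filter, at 6.27 and 3.98 in the Gli2-ablated sample and 6.15 and 3.81 in the control sample.

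Gpr183, the chemotactic receptor for the ligand built by Ch25h and Cyp7b1, was nearly level. It had 10.74 in the Gli2-ablated sample and 10.68 in the control sample, a difference of 0.06, and 45.9% of the 1236 genes of like signal were as high. The genes nearest in both signals were Fxyd5 (distance 0.01), the survival factor Bcl2 (0.03) and the phosphatase subunit Ppp2r5a (0.04). With 88 genes within 0.2 of it, Gpr183 had many such neighbours.

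Markers of B cells and of T cells, both known to carry Gpr183, were well above the filter in both samples. Over all genes that passed the filter, 53.0% were higher and 44.8% lower. All 8 B cell markers passed the filter, 7 of them higher and 1 lower, with a median of 0.04 that turned to -0.01 under loess scaling. They ran from Cd79b (-0.21) to the IgE receptor Fcer2a (0.31), and their log2 summed signal was 13.45 in the Gli2-ablated sample and 13.43 in the control sample. Of 10 T and NK cell markers 9 were higher, with a median of 0.30 and a log2 summed signal of 13.87 in the Gli2-ablated sample and 13.56 in the control sample. Among them Cd4 was lowest (-0.03) and the activating receptor Klrk1 highest (0.96).

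The 9 dendritic cell markers, 6 of them lower, had a median of -0.07, from Clec9a (-0.61) to the MHC class II activator Ciita (0.25). Their log2 summed signal was 13.52 in the Gli2-ablated sample and 13.41 in the control sample. That sum mainly follows the brightest genes, H2-Ab1 and Ccr7, which were higher, as was Ciita, and not the 6 lower markers. Which cells gave the signals of H2-Ab1, Ccr7 and Ciita is not shown by these values. The sum therefore need not follow dendritic cells. H2-Ab1 had 12.54 in the Gli2-ablated sample and 12.48 in the control sample. Ccr7 had 12.16 in the Gli2-ablated sample and 11.92 in the control sample. Zbtb46, one of the lower markers, passed the filter only through its control signal of 6.47, since its Gli2-ablated signal was 6.39. These signals do not show which cells gave the Gpr183 signal, and the part of each cell type in it was not tested.

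**Figure D3:**
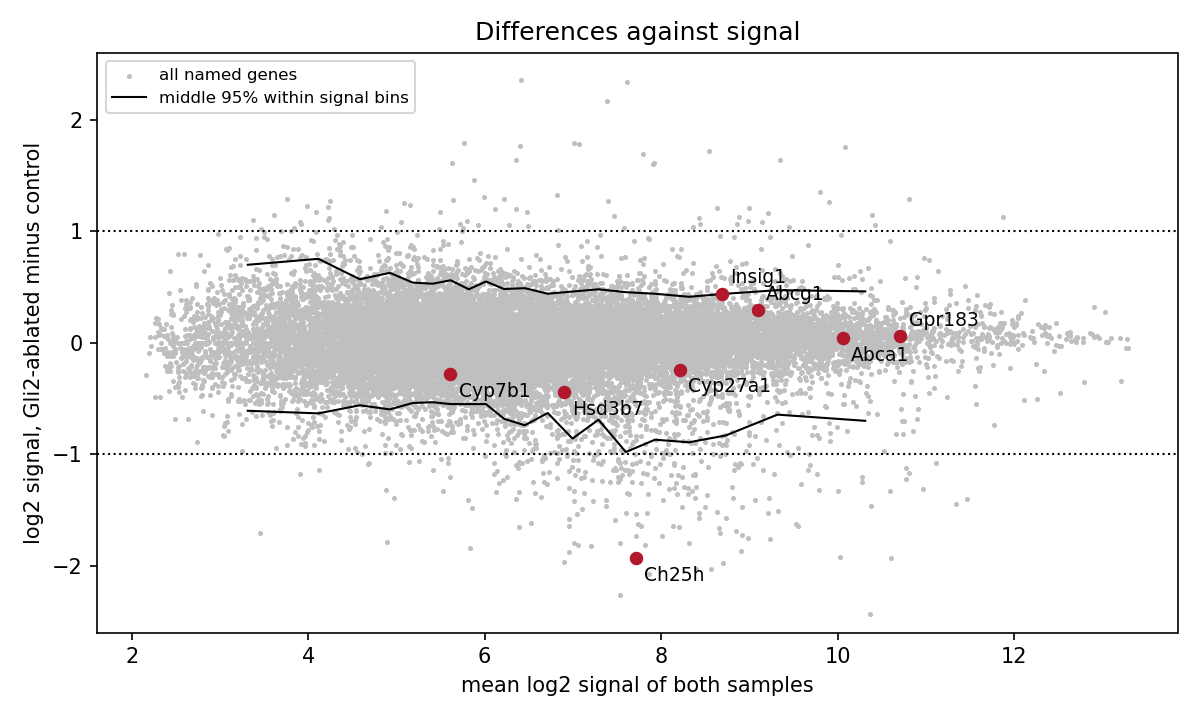
Difference in log2 signal, Gli2-ablated minus control (vertical axis), against the mean log2 signal of both samples (horizontal axis) for all named genes (grey), with the 8 genes in red, the middle 95% within 20 bins of signal as lines and 2-fold dotted; 4 genes beyond 2.6 in size are not drawn. Ch25h lies far below the lines at -1.93, Insig1 at their upper edge at 0.44, and the other 6 genes between them.

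The cholesterol exporters are both known targets of the liver X receptors, and both had differences inside the middle 95% of genes of like signal. Abca1, which loads cholesterol onto lipid-poor apolipoprotein, had 10.08 in the Gli2-ablated sample and 10.04 in the control sample. Its difference of 0.04 turned to -0.01 under loess scaling and was 0.01 and 0.02 under the other scalings, so that it has no settled direction. Abcg1, which passes cholesterol to mature high-density lipoprotein, had 9.24 in the Gli2-ablated sample and 8.95 in the control sample. The difference of 0.29, a 1.22-fold higher signal, was reached by 7.95% of 1232 genes of like signal.

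Among the 6 genes with a promoter window, which leave out Abcg1 and Cyp7b1, Abca1 alone held a motif, the relaxed liver X receptor element. Srebf1 and Fasn, both known liver X receptor targets, also held it, and these were 3 of the 142 listed genes with a window. The matches are shown to let the 3 elements be compared, as 30 bases along each gene with the element in capitals, which reads on the opposite strand. The windows are in RefSeq GRCm38.p6 at chr4:53159846-53160145, chr11:60210422-60210721 and chr11:120824498-120824797, all on the minus strand, and the elements end 52, 167 and 210 bases before the start of Abca1, Srebf1 and Fasn.
Abca1: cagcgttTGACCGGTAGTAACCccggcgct
Srebf1: acgacagTGACCGCCAGTAACCccagcgcg
Fasn: gccacgaTGACCGGTAGTAACCccgcctga
The genes with this element were close to level. Srebf1, the SREBP that drives fatty acid synthesis, had 7.61 in the Gli2-ablated sample and 7.72 in the control sample (-0.11), and the fatty acid synthase Fasn had 8.63 in the Gli2-ablated sample and 8.75 in the control sample (-0.12). A match is a description of letters and not evidence of binding.

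Receptors and other targets of this branch had small differences as well. Of 22 listed genes, with Abca1 and Abcg1 not among them, 17 passed the filter. Of these, 9 were lower, 7 higher and 1 equal, with a median of -0.04 and 0 at least 2-fold apart. Among all genes that passed, 44.8% were lower, 53.0% higher, 1.73% at least 2-fold lower and 0.373% at least 2-fold higher. The receptor Nr1h2 (LXR beta) had 9.07 in the Gli2-ablated sample and 8.98 in the control sample, while Nr1h3 (LXR alpha) stayed below the filter at 5.79 in the Gli2-ablated sample and 6.06 in the control sample. Mylip, a ubiquitin ligase and liver X receptor target, was equal at 9.22 in both.

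The gene farthest from 0 in that list was Lpl, the lipoprotein lipase of fat cells and macrophages (7.44 in the Gli2-ablated sample and 8.21 in the control sample, -0.77, with -0.28 on its dimmer row). Apolipoprotein E, Apoe, a carrier of exported cholesterol, had 7.94 in the Gli2-ablated sample and 8.43 in the control sample (-0.49). At the other end stood the corepressor Ncor1 (0.20). The 6 listed adipocyte markers were all lower in the Gli2-ablated sample, with a median of -0.38, against 47.0% lower over all named genes. Of the 6 markers, 2 passed the filter, Car3 (-1.15, with -0.76 on its dimmer row) and Fabp4 (-0.79), with a median of -0.97. Over all 6 the log2 summed signal was 10.76 in the Gli2-ablated sample and 11.53 in the control sample. That sum mainly follows Fabp4, at 10.46 in the Gli2-ablated sample and 11.25 in the control sample. The defining markers Adipoq and Plin1 lay below the filter, as did Cfd and Lep, so they are not shown to exceed background. Which cells gave the Fabp4 signal is not shown by these values. The part of the adipocyte markers in the Lpl difference was not tested.

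Insig1, which retains SREBP in the endoplasmic reticulum, was the highest of the 8. It had 8.91 in the Gli2-ablated sample and 8.47 in the control sample, a difference of 0.44 or a 1.36-fold higher signal. As high were 2.83% of the 1236 genes of like signal, so that Insig1 stood at the upper edge of their middle 95% (0.44). The 3 nearest genes in both signals were Vamp7 (distance 0.05), Was (0.06) and Zscan29 (0.08). Its relative Insig2 had 7.54 in the Gli2-ablated sample and 7.41 in the control sample (0.13).

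The machinery that Insig1 acts on was close to level. All 11 genes of SREBP control passed the filter, 5 lower, 5 higher and 1 equal, with a median of 0.00 and 0 at least 2-fold apart. Among all genes that passed, 44.8% were lower, 53.0% higher, 1.73% at least 2-fold lower and 0.373% at least 2-fold higher. Srebf2, the SREBP that drives cholesterol synthesis, had 9.75 in the Gli2-ablated sample and 9.82 in the control sample (-0.07). The list ran from Pgrmc1, a membrane heme-binding protein (-0.29), to Rnf139, a ubiquitin ligase (0.17).

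Cholesterol synthesis enzymes had small differences. Of 21 listed, 20 passed the filter, 15 higher, 4 lower and 1 equal, with a median of 0.08, and 0 were at least 2-fold apart. Over all genes that passed, 53.0% were higher, with a median of 0.02, and 1.73% were at least 2-fold lower and 0.373% at least 2-fold higher. The sterol dehydrogenase Nsdhl was highest, at 8.0 in the Gli2-ablated sample and 7.68 in the control sample (0.32), and squalene epoxidase, Sqle, lowest, at 6.86 in the Gli2-ablated sample and 7.12 in the control sample (-0.26). All of these lie within 2 times the spread of single genes (0.21). Under loess the list median was 0.05.

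The sterol regulatory element was found in the windows of 2 listed genes, given here because SREBP is known to act through it. They are Hmgcs1, a synthase early in cholesterol synthesis, at chr13:119690101-119690400, and Stard3, a cholesterol transporter of late endosomes, at chr11:98358118-98358417, both on the plus strand of RefSeq GRCm38.p6. The element, in capitals, ends 128 bases before the start of Hmgcs1 and 202 before that of Stard3.
Hmgcs1: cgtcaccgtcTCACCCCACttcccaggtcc
Stard3: cagttcccctTCACTCCACagtgtcaggcc
Hmgcs1 had 8.46 in the Gli2-ablated sample and 8.16 in the control sample (0.30), and Stard3 had 7.04 in the Gli2-ablated sample and 6.96 in the control sample (0.08).

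Cholesterol uptake, transport and storage held the other sterol genes at least 2-fold apart, and none of the other 4 sterol lists had one. Of 40 listed, 32 passed the filter, 21 lower and 11 higher, with a median of -0.07. Osbpl10 passed only through its control signal (6.26 in the Gli2-ablated sample and 6.61 in the control sample). Soat2 passed only through its Gli2-ablated signal (6.50 in the Gli2-ablated sample and 6.26 in the control sample). Over all genes that passed, 44.8% were lower and 1.73% at least 2-fold lower. Lrp1, an endocytic receptor for apolipoprotein E and many other ligands, had 8.36 in the Gli2-ablated sample and 9.77 in the control sample (-1.41, 2.66-fold lower). Abca8a, a lipid transporter of the same family as Abca1, had 5.65 in the Gli2-ablated sample and 7.05 in the control sample (-1.40), with the Gli2-ablated signal below the filter.

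Genes of cholesterol storage and lysosomal export differed less. The cholesterol-esterifying enzyme Soat1 had 9.57 in the Gli2-ablated sample and 9.64 in the control sample (-0.07). Npc1, which exports cholesterol from lysosomes, had 8.77 in the Gli2-ablated sample and 8.79 in the control sample (-0.02, with 0.47 on its dimmer row). Lrp1 and Abca8a, like Ch25h, were lower in the same sample as the fibroblast markers, whose part in these differences was not tested.

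**Figure D4:**
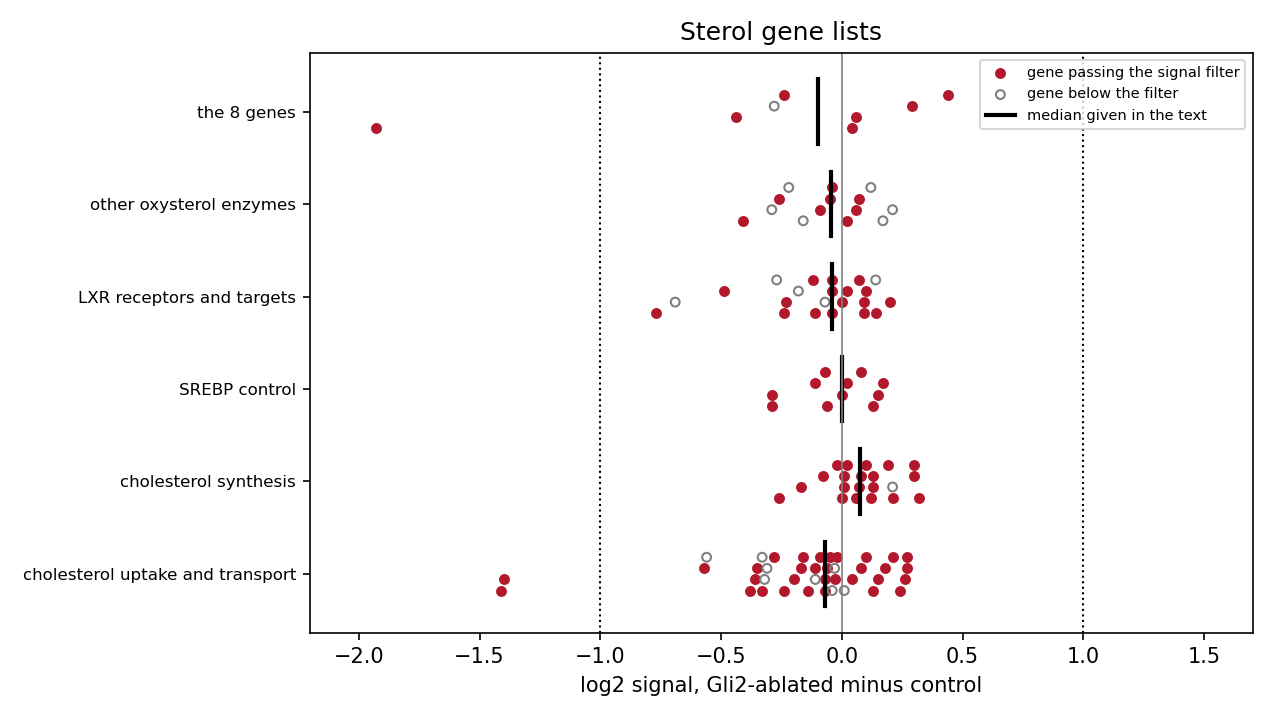
Difference in log2 signal, Gli2-ablated minus control (horizontal axis), of the 8 genes and of each gene of 5 sterol lists, with genes below the signal filter as open circles, medians as bars (over all 8 genes in the top row, over genes passing the filter elsewhere) and 2-fold as dotted lines. Beyond 2-fold stand Ch25h (-1.93), Lrp1 (-1.41) and Abca8a (-1.40), all lower in the Gli2-ablated sample.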

How the data were processed

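Per the labels' protocols, RNA of sorted cells was extracted with Trizol and an RNeasy column and labelled as biotinylated cRNA. Per the file headers, the deposited values are a log2 bi-weight average signal for each transcript cluster, and the authors deposited beside it a signed fold, a score of control over ablated whose sign turns negative for genes higher in the ablated sample. The submitters' processing notes name Transcriptome Analysis Console. The sources used here do not give the array design, the genome build, or how background and scale were treated, and scaling can mask a change shared by every gene.

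Of 41345 clusters, 27036 carried a symbol. Gene differences, the signal filter, 20 signal bins, list medians and counts at 2-fold were computed, with no test, since each group has 1 sample. The 8 genes and the 15 further lists (197 entries, 195 found by symbol and 2 by an alias) were chosen with earlier results of these data known. Named in the text are the 8 genes, Gli2, list genes at least 2-fold apart or otherwise the extremes of a list, a few defining genes, and the 3 nearest genes in both signals; a few of these are not reported here. Simulated data served to check these computations. Alternatives were quantile, loess (span 0.3) and median scaling, averaged rows, the deposited fold, the series matrix, folds of 1.5 and 3, and the filter. Promoter windows came from RefSeq. Python 3.11.15, numpy 2.4.6, pandas 2.3.3, scipy 1.17.1, statsmodels 0.14.6 and matplotlib 3.10.9 were used.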

Additional observations from a re-analysis of the deposited data

How the results depend on the processing

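With 1 sample per group, none of these values has a replicate error, and the dim signals of Cyp7b1 and of the second Ch25h row are not shown to exceed background. Of 176 recomputed values, 173 stayed within the spread of single genes or, for counts, within 1.5 times. Most of these settings could change little, so the count is no measure of how sure the differences are. The deposited fold and the series matrix restate nearly the same signals, and averaging changes only symbols with more than 1 row. The scalings moved the median difference over all named genes by only -0.01 to -0.02. Averaging the rows of a symbol gave -0.965 for Ch25h and a count of 0 genes at least 2-fold lower, because the second Ch25h row is level. Under the scalings Ch25h stayed between -1.97 and -1.95 and Insig1 between 0.39 and 0.42. The median of the 8 genes ran from -0.14 under the scalings to 0.04 over the 7 that passed the filter. The adipocyte median was -0.97 over the 2 markers passing and -0.38 with no filter, where 6 genes enter. No paired analysis was possible because each group holds 1 sample.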

Other observations

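The 2 deposited tables gave the same signals, within 0.006 on the log2 scale, in 41343 of 41345 transcript clusters. The exceptions were the rows of Gli2 and Bmp7, a bone morphogenetic protein that the study's design names. For Bmp7 the comparison table gave 7.14 in the Gli2-ablated sample and 7.79 in the control sample (-0.65), and the series matrix gave 7.56 in the Gli2-ablated sample and 7.90 in the control sample (-0.35). For Gli2 the ablated signal was 5.32 in the comparison table and 5.72 in the series matrix, so that its difference was -0.62 in the first and -0.22 in the second. Which values are the processed signals of these arrays was not tested.

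Vascular markers lay between the fibroblast and the leukocyte lists. Over all genes that passed the filter, 44.8% were lower. All 7 endothelial markers were lower in the Gli2-ablated sample, with a median of -0.60, and the tight junction gene Cldn5 was the lowest (5.73 in the Gli2-ablated sample and 6.73 in the control sample). The Gli2-ablated signals of Cldn5 and of Tek (6.0) lay below the filter and are not shown to exceed background. All 5 pericyte and smooth muscle markers were lower, with a median of -0.41. The lowest was Rgs5 at 7.60 in the Gli2-ablated sample and 8.60 in the control sample, with -0.66 on its dimmer row. Des passed the filter only through its control signal of 6.45, since its Gli2-ablated signal of 6.12 lay below it. Of the 6 epithelial markers 4 passed the filter, from the cadherin Cdh1 (-0.37, or -0.09 on its dimmer row) to the keratin Krt8 (0.12). Their median was -0.15.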
